A study of Mus musculus with 51 samples.

Results

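The genes described are 10 members of the inhibin and activin pathway: *Inha*, *Inhba* and *Inhbb*, *Fst* and *Fstl3*, *Bambi*, *Acvr1b*, *Acvr2a*, *Acvr2b* and *Tgfbr3*. They were taken by gene symbol from a count table of 55401 genes, and all 10 passed the filter on low counts in every comparison. The list was made with earlier results of these data known, so it was not chosen blind to them. The study asked how loss of *Dmrt1*, which encodes a DM domain transcription factor that maintains Sertoli cell identity, and its R111G allele change the mouse testis. Messenger RNA was sequenced in 30 libraries, 3 in each of 10 groups, from mice of a mixed 129Sv and C57Bl/6J background. At postnatal day 28 (P28) the groups were wild-type (*Dmrt1* +/+), *Dmrt1* +/-, *Dmrt1* -/- and *Dmrt1* R111G/+ gonads. At P3 they were *Dmrt1* +/-, *Dmrt1* -/-, *Dmrt1* R111G/- and *Dmrt1* R111G/+ gonads, with no wild-type group. The P7 groups were Sertoli cells of *Dmrt1* f/f mice and of *Dmrt1* f/+ controls, both with CAG-Stopflox-tdTomato and Dhh-Cre, so that the controls also carried Cre and a floxed allele. Dhh-Cre is active in Sertoli cells, and in the P7 preparation, pooled from tubules of several mice, germ cells were depleted with antibodies and beads. The R111G line descends from 1 correctly edited founder. Whether the 3 libraries of a group came from separate animals is not stated in the labels, so p-values measure the spread between these libraries.

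Inhibins and activins are secreted dimers of the transforming growth factor beta family that share their beta subunits. An alpha subunit (*Inha*) joined to a beta subunit gives inhibin A (*Inhba*) or inhibin B (*Inhbb*), which lowers follicle stimulating hormone release from the pituitary, and beta subunits joined to each other give activins, which raise it. Activin binds the type II receptors ACVR2A or ACVR2B, which recruit the type I receptor ACVR1B and lead to phosphorylation of SMAD2 and SMAD3. Follistatin (*Fst*) and follistatin-like 3 (*Fstl3*) trap activin outside the cell, BAMBI is a pseudoreceptor without kinase activity, and betaglycan (*Tgfbr3*) helps inhibin to occupy type II receptors. In the testis, inhibin B comes mainly from Sertoli cells, and in the ovary granulosa cells make both inhibins.

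The P28 gonads differed widely in cell makeup. *Dmrt1* stood at 37.0 to 47.6 CPM (read counts scaled to library size and by trimmed mean of M values, TMM) in wild-type and 0.171 to 0.463 in *Dmrt1* -/- libraries, at 168 to 259 in P7 control and 21.2 to 36.8 in P7 *Dmrt1* f/f libraries, and at 53.3 to 81.7 in P3 *Dmrt1* +/- and 2.12 to 3.32 in P3 *Dmrt1* -/- libraries. Summed spermatid markers (9 genes) ran from 17440 to 20930 CPM in P28 wild-type and from 26.3 to 33.2 CPM in P28 *Dmrt1* -/- libraries. Summed Leydig cell markers (8 genes) were at 1149 to 2787 against 10590 to 12530 CPM, stromal markers (6 genes) at 431 to 689 against 3139 to 3869 CPM, and granulosa markers (9 genes) at 27.1 to 35.0 against 974 to 1276 CPM. The Leydig sum does not speak for each of its genes. Of these, 3 were called higher and 2 lower in *Dmrt1* -/- against wild-type gonads, with a median log2 fold change of 0.50. In P28 *Dmrt1* +/- replicate 3 the spermatid sum was 4395 CPM, below the 16280 and 20980 CPM of the other two. The P7 libraries held Sertoli markers (10 genes) at 2727 to 5544 CPM and macrophage markers (9 genes) at 6.29 to 10.0 CPM. In bulk RNA, fewer cells of a type and less RNA per cell cannot be told apart. Library totals were 5043838 to 12792811 counts.

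The start regions of the 3 subunit genes are shown because all 3 were called higher in P28 *Dmrt1* -/- gonads. Each line holds the 150 bases before the gene start of GENCODE M21, read from the RefSeq genome of build GRCm38.p6 in the direction of transcription, with matches of the motifs named after the lines in capitals. *Inha* lies on the plus strand (chr1:75506927-75507076), *Inhba* on the plus strand (chr13:16011701-16011850) and *Inhbb* on the minus strand (chr1:119422249-119422398).
Inha: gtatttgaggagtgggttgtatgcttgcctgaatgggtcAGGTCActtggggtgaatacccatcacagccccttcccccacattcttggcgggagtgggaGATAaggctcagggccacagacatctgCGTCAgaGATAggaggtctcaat
Inhba: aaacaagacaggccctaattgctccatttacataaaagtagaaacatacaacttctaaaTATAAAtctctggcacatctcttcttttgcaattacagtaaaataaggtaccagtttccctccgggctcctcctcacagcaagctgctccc
Inhbb: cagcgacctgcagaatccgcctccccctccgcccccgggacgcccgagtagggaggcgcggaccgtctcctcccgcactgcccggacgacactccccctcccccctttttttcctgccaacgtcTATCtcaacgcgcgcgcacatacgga
The capitals in *Inha* mark a nuclear receptor half-site (AGGTCA, at -111 to -106 from the start), GATA at 2 places and the half-site of a cyclic AMP response element (TGACG, read on the other strand as CGTCA). In *Inhba* they mark a TATA box (TATAAA, at -91 to -86), and in *Inhbb* a GATA on the other strand, written TATC.

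These motifs were searched on both strands in the 250 bases before the start of 21877 protein-coding genes and of the 7 members that the RefSeq promoter table holds. *Fst*, *Bambi* and *Tgfbr3* were not searched. AGGTCA was found before *Inha* and *Fstl3* and before 12.9% of all genes, and TGACG before *Inha* alone of the 7 and before 19.3% of all genes. TATAAA stood before *Inhba* and *Fstl3* (2523 of all genes), and GATA before *Inha*, *Inhba*, *Inhbb* and *Acvr2b* (51.1%). The DMRT core ACANTGT (4.90% of all genes), the forkhead core TAAACA (10.9%) and the full response element TGACGTCA (1.94%) were in 0 of the 7 windows. Short, frequent motifs were left in lower case: the E-box CANNTG was in 3 of the 7 windows, among them *Inha*, and before 64.1% of all genes, and the SMAD element GTCT in 7 of 7 and before 82.6%. The table's own start for *Inha* lies 532 bases downstream, inside the gene, and was not used. *Inhba* had the lowest share of G and C of the 7 windows, 43.2%, and *Acvr2a* the highest, 82.0%, beside a median of 54.0% over all genes. A match of letters is a description of the sequence only.

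**Figure D1:**
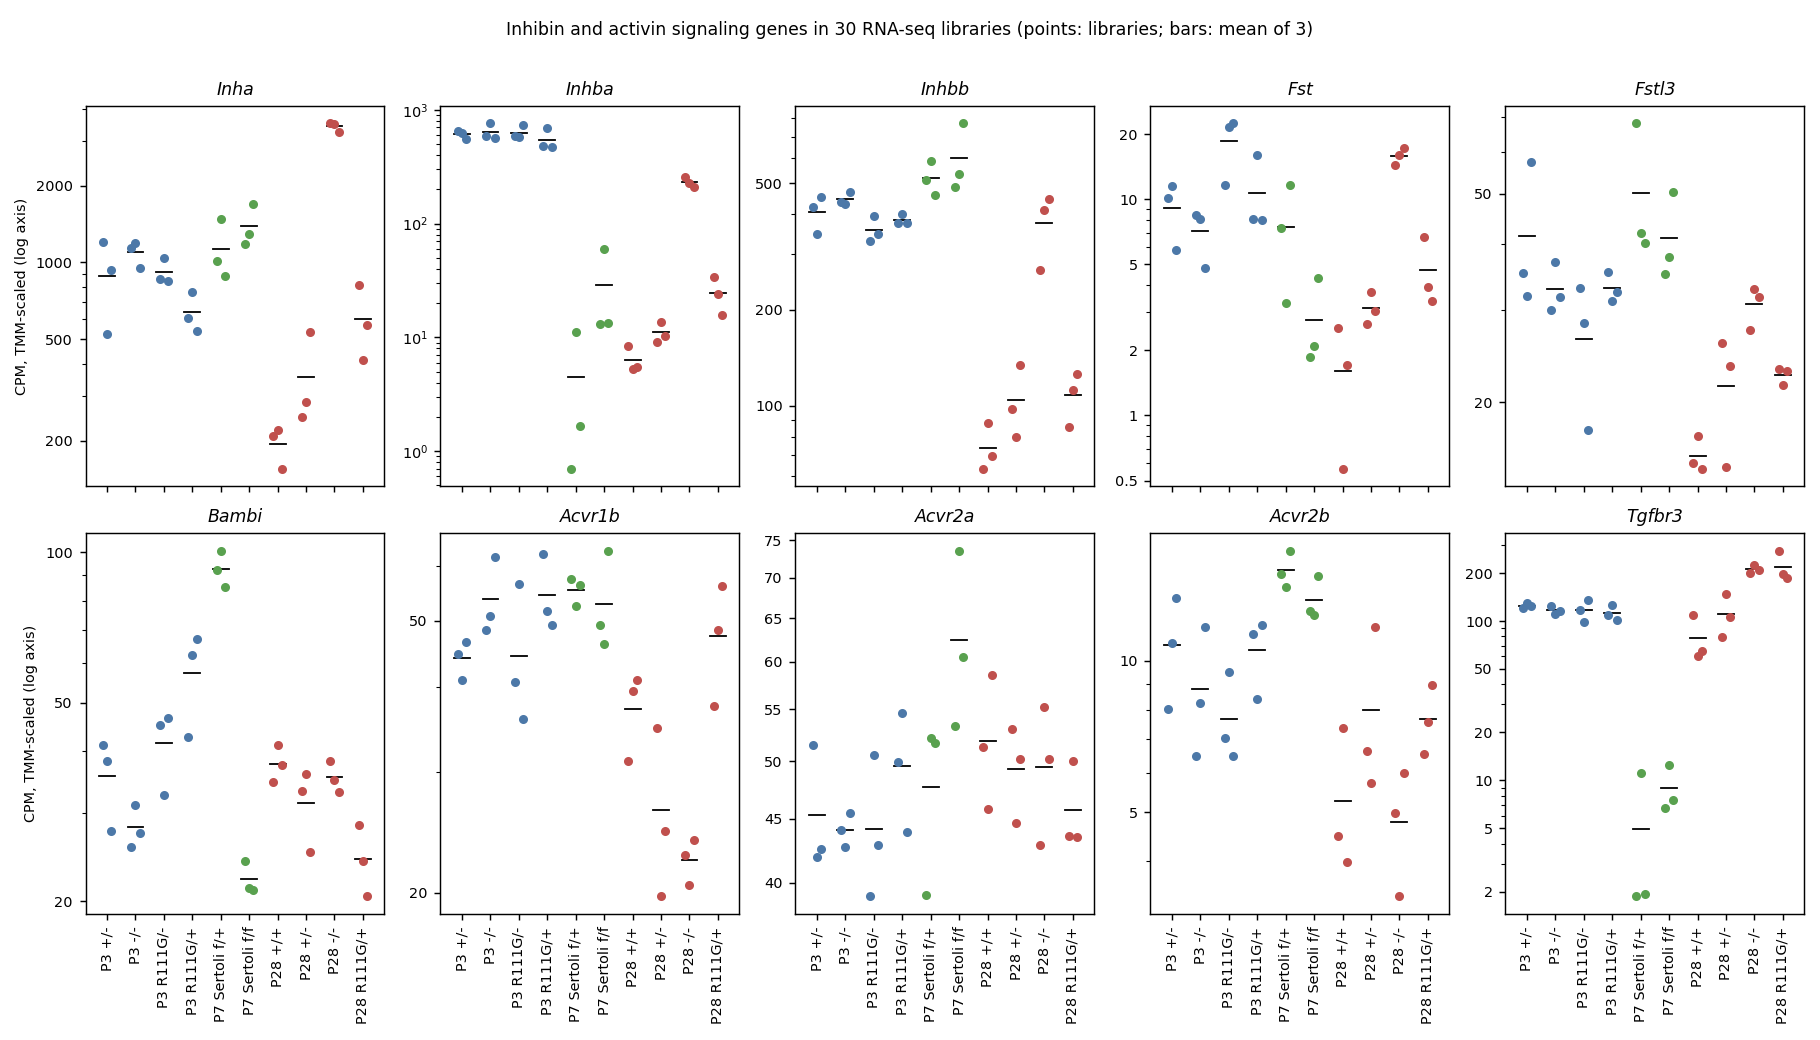
TMM-scaled CPM of the 10 genes (y axis, log scale, one panel a gene) in the 30 libraries, by age and genotype (x axis, each group 3 points with a bar at the mean; blue P3, green P7 Sertoli cells, red P28). The 3 P28 *Dmrt1* -/- libraries stand at 3260 to 3519 CPM for *Inha* and at 208 to 257 CPM for *Inhba*, above every other P28 library, while *Acvr2a* spans 39.0 to 73.6 CPM over all 30.

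Per kilobase of exon, *Inha* had the highest mean of the 10 genes in every group, from 132 CPM per kb in P28 wild-type testes to 2317 CPM per kb in P28 *Dmrt1* -/- gonads. The next place was held by *Inhbb* in P28 wild-type (17.3 CPM per kb), *Dmrt1* +/- (24.4) and *Dmrt1* -/- (88.0) gonads and in the P7 groups (122 and 141), and by *Tgfbr3* in P28 *Dmrt1* R111G/+ gonads (33.6). *Inhba* moved furthest in this order. It followed *Inha* alone or *Inha* and *Inhbb* in all P3 groups, at 85.8 to 100.8 CPM per kb, ninth in P28 wild-type testes at 1.00 CPM per kb and last in P7 control Sertoli cells at 0.702 CPM per kb. *Fst* was at 0.349 to 4.05 CPM per kb throughout.

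The span between the highest and the lowest group mean was 144-fold for *Inhba*, 44.3-fold for *Tgfbr3*, 17.5-fold for *Inha* and 11.6-fold for *Fst*. It was 8.14-fold for *Inhbb*, 4.19-fold for *Bambi*, 3.17-fold for *Acvr2b* and *Fstl3*, and 2.48-fold for *Acvr1b*. *Acvr2a*, which encodes an activin type II receptor, spanned 1.42-fold. In the order of group means, neighbouring groups overlapped throughout for *Fst*, *Fstl3*, *Acvr1b*, *Acvr2a* and *Acvr2b*. For *Inha*, P28 *Dmrt1* -/- gonads stood clear above all other groups, and for *Bambi* the P7 controls did.

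The first comparison at P28 asked what differs in gonads without *Dmrt1*. *Inha* was at 209, 221 and 155 CPM in wild-type, at 249, 285 and 536 CPM in *Dmrt1* +/-, and at 3519, 3473 and 3260 CPM in *Dmrt1* -/- libraries. Every *Dmrt1* -/- library was thus above every library of the other two genotypes, and wild-type and *Dmrt1* +/- libraries did not overlap either. *Inha* rose by a log2 fold change of 4.16 against wild-type (SE 0.341, adjusted p = 1.29e-07; edgeR's quasi-likelihood test with Benjamini-Hochberg adjustment, as for every adjusted p here), which is 17.9-fold, and by 3.25 against *Dmrt1* +/- (adjusted p = 1.12e-06). Calls required an adjusted p below 0.05 and a log2 fold change beyond 1 in either direction.

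*Inhba* was at 8.42, 5.23 and 5.55 CPM in wild-type, 9.08, 13.8 and 10.3 CPM in *Dmrt1* +/-, and 257, 229 and 208 CPM in *Dmrt1* -/- libraries. The groups did not overlap, and *Inhba* rose more than any other member, by a log2 fold change of 5.19 against wild-type (SE 0.307, adjusted p = 9.87e-09; 36.6-fold) and 4.39 against *Dmrt1* +/- (adjusted p = 2.99e-08). *Inhbb* was at 63.3, 88.1 and 69.2 CPM in wild-type and at 267, 412 and 445 CPM in *Dmrt1* -/- libraries, again without overlap. *Inhbb* rose by 2.38 on the log2 scale against wild-type (adjusted p = 1.56e-06; 5.22-fold) and by 1.85 against *Dmrt1* +/- (adjusted p = 1.77e-05). The subunits of both inhibins and of both activins were thus at higher levels at P28 in *Dmrt1* -/- gonads.

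Of the secreted antagonists, *Fst* was at 2.54, 0.566 and 1.71 CPM in wild-type, which rests on 22, 4 and 12 counts, and at 14.4, 15.9 and 17.2 CPM in *Dmrt1* -/- libraries. The groups did not overlap, and *Fst* rose by 3.30 on the log2 scale against wild-type (SE 0.416, adjusted p = 7.05e-06) and by 2.34 against *Dmrt1* +/- (adjusted p = 8.89e-05). *Fstl3* stood at 14.9 to 17.2 CPM in wild-type and 27.4 to 33.0 CPM in *Dmrt1* -/- libraries, a log2 fold change of 0.99 with an adjusted p of 4.72e-04, just under the 2-fold line. It was past that line without *Dmrt1* -/- replicate 1 (1.07) or without wild-type replicate 2 (1.05).

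The receptors gave a different picture. *Tgfbr3* was at 109, 60.0 and 64.7 CPM in wild-type and at 200, 226 and 209 CPM in *Dmrt1* -/- libraries, without overlap, and rose by 1.47 on the log2 scale (SE 0.268, adjusted p = 1.93e-04). Against *Dmrt1* +/- its log2 fold change was 0.93 (adjusted p = 0.00577), under 2-fold. *Acvr1b* had log2 fold changes of -0.70 (adjusted p = 0.00985) and -0.24 (adjusted p = 0.339) against the same groups. *Acvr2a*, *Acvr2b* and *Bambi* were between -0.10 and -0.04 against wild-type. Against *Dmrt1* +/- they were at 0.005, -0.74 (adjusted p = 0.0676) and 0.18 in that order. *Acvr2b* was called there without *Dmrt1* -/- replicate 3 (-1.03, adjusted p = 0.0411) and was at -0.33 without *Dmrt1* +/- replicate 3.

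In all, 5 of the 10 members were called higher in *Dmrt1* -/- gonads against wild-type and 0 lower, where 66.6% of all genes tested were called, 26.1% higher and 40.5% lower. Against *Dmrt1* +/- the members gave 4 higher and 0 lower, beside 58.5% of all genes in either direction, 19.8% higher and 38.7% lower. The median log2 fold change of the members was 1.23 against wild-type and 0.72 against *Dmrt1* +/-, and that of all genes tested -0.31 and -0.28. The comparisons share the *Dmrt1* -/- libraries. The Leydig, stromal and granulosa marker sums above rose with these members, the Leydig sum with 2 of its 8 genes called lower, and the spermatid sum fell. The part of these cells in the results was not tested.

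**Figure D2:**
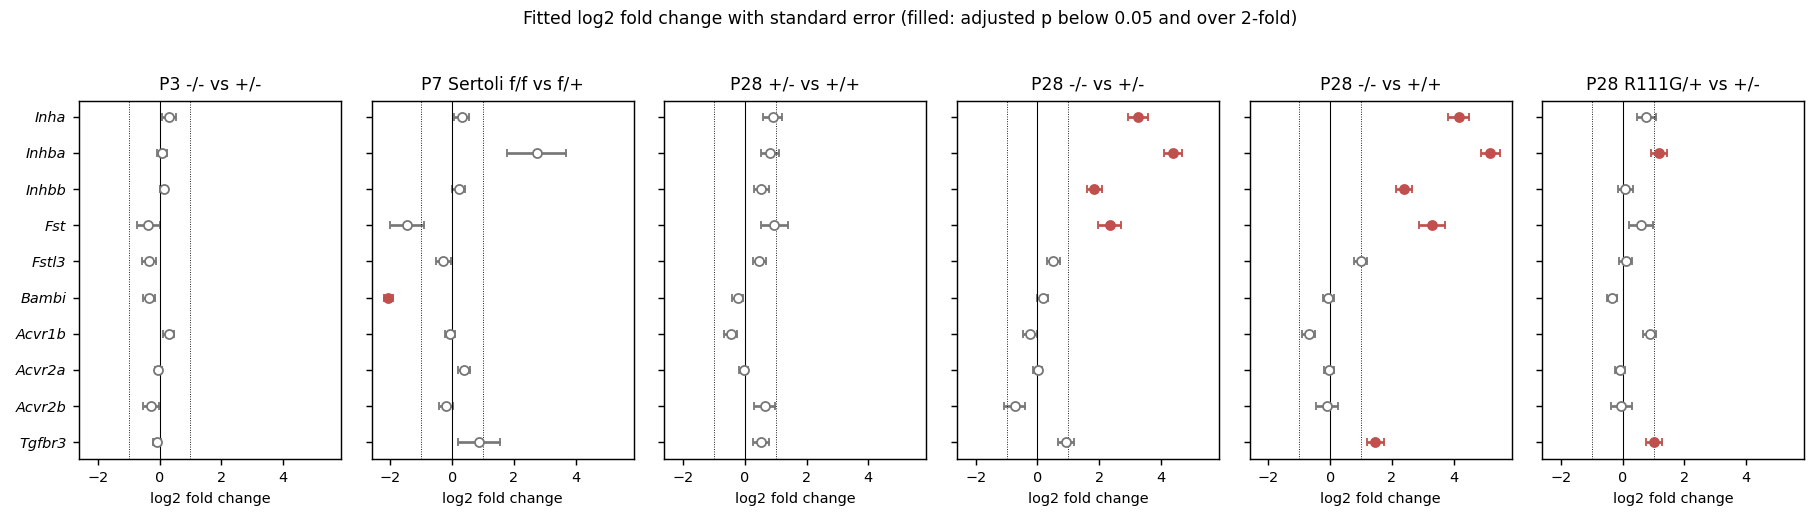
Fitted log2 fold change (x axis) with its standard error for each of the 10 genes (y axis) in 6 comparisons, with dotted lines at a 2-fold change. Filled points passed an adjusted p of 0.05 and 2-fold: 5 genes in P28 *Dmrt1* -/- against wild-type, 4 against *Dmrt1* +/-, 2 in *Dmrt1* R111G/+ against *Dmrt1* +/-, 1 at P7, and 0 at P3 or for *Dmrt1* +/- against wild-type.

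The fold changes at P28 depended on how libraries were scaled. With factors from the summed macrophage, endothelial, peritubular myoid and stromal markers instead of TMM, the median of all genes in *Dmrt1* -/- against wild-type went from -0.31 to -2.50. On that scale *Inhba* still rose (log2 fold change 3.07, adjusted p = 1.35e-07), as did *Inha* (1.98, adjusted p = 1.73e-04) and *Fst* (1.21, adjusted p = 0.0129). *Inhbb* was at 0.14 (adjusted p = 0.757), and *Tgfbr3* turned to -0.66 (adjusted p = 0.0378). *Fstl3*, *Bambi*, *Acvr1b*, *Acvr2a* and *Acvr2b* were called lower there, at -1.22 to -2.93, as were 15691 of all 20952 genes, with 586 called higher. On the TMM scale the stromal, macrophage and endothelial sums were themselves higher in *Dmrt1* -/- than in wild-type libraries (3139 to 3869, 913 to 1189 and 388 to 436 CPM against 431 to 689, 257 to 481 and 37.4 to 46.8 CPM). Among the members, only *Inha* and *Inhba* were called higher against both controls on both scales.

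**Figure D3:**
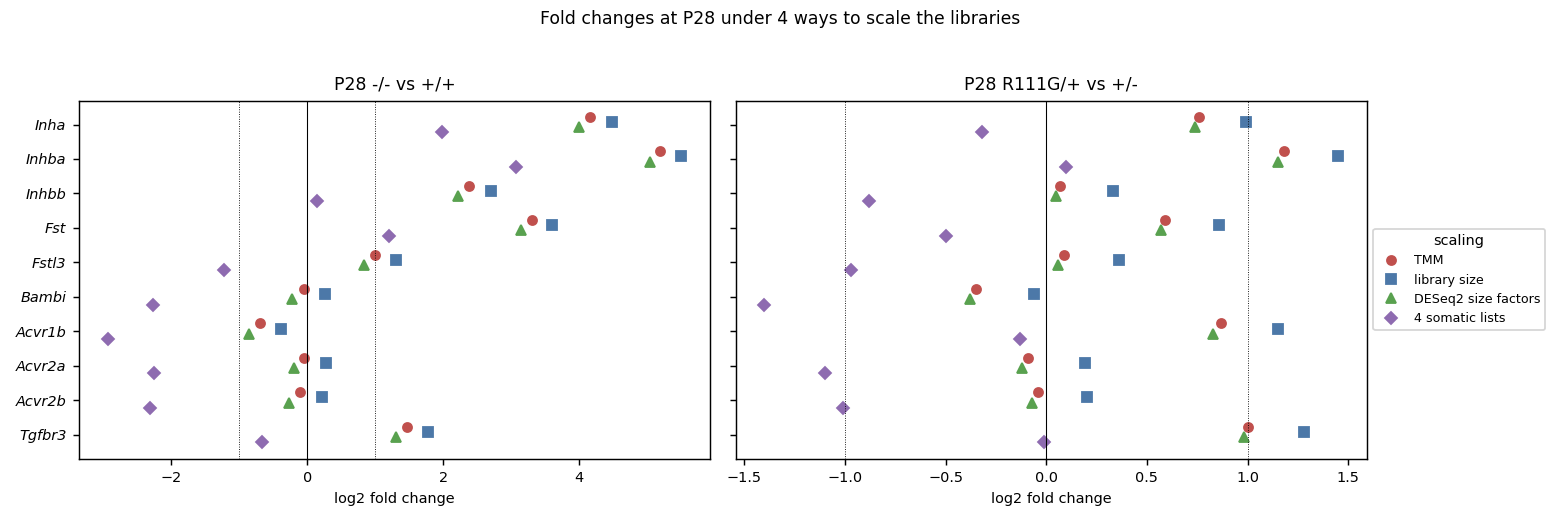
Log2 fold change (x axis) of the 10 genes (y axis) at P28 with libraries scaled by TMM, by library size, by DESeq2 size factors or by 4 somatic marker lists, for *Dmrt1* -/- against wild-type (left) and *Dmrt1* R111G/+ against *Dmrt1* +/- (right). Somatic scaling moves *Inha* from 4.16 to 1.98 and *Inhba* from 5.19 to 3.07 on the left, and *Inhba* from 1.178 to 0.10 on the right.

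*Dmrt1* +/- testes were set against wild-type to see whether 1 lost allele moved these genes. *Dmrt1* itself was at 39.1, 31.2 and 62.3 CPM in *Dmrt1* +/- and at 37.0, 47.65 and 40.8 CPM in wild-type libraries, which overlapped. Of the 10 members 0 were called, as were 0% of 20952 genes, with 5 members and 3769 genes at an unadjusted p below 0.05. DESeq2 called 0 members as well, and with no low-count filter edgeR called 1, *Inha* (adjusted p = 8.29e-04), beside 252 higher and 18 lower of 37880 genes. The members with such unadjusted p values were *Inha* (log2 fold change 0.91, adjusted p = 0.208), *Fst* (0.96), *Inhba* (0.81), *Inhbb* (0.54) and *Fstl3* (0.47). *Inha* was at 0.47 without *Dmrt1* +/- replicate 3, the library with few spermatid transcripts, which held the 536 CPM given above.

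In *Dmrt1* R111G/+ gonads, which carry an allele with a changed DNA-binding domain beside a wild-type copy, 2 of 10 members were called higher than in *Dmrt1* +/- testes and 0 lower, beside 34.8% of all genes (6.72% higher and 28.1% lower). *Inhba* was at 34.1, 24.3 and 15.9 CPM against 9.08, 13.8 and 10.3 CPM in *Dmrt1* +/- libraries, without overlap, and rose by 1.178 on the log2 scale (SE 0.266, adjusted p = 0.00269). *Tgfbr3* was at 277, 197 and 186 CPM against 79.1, 147 and 106 CPM, also without overlap. Its log2 fold change of 1.00 (adjusted p = 0.00675) was barely past the 2-fold line. It was under that line with DESeq2 (0.98) and without *Dmrt1* +/- replicate 1 (0.80), *Dmrt1* +/- replicate 3 (0.98) or *Dmrt1* R111G/+ replicate 1 (0.96). *Acvr1b* was at 37.6 to 56.2 against 19.7 to 34.8 CPM without overlap, with a fitted log2 difference of 0.87 (adjusted p = 0.00501), and was called without *Dmrt1* +/- replicate 1 (1.10) or *Dmrt1* R111G/+ replicate 1 (1.16). *Inha* differed by 0.76 on the log2 scale (adjusted p = 0.0491), and by 1.19 (adjusted p = 0.00259) without *Dmrt1* +/- replicate 3. The Leydig sum was at 3820 to 7812 CPM and the stromal sum at 1238 to 2393 CPM in *Dmrt1* R111G/+ libraries, above the *Dmrt1* +/- ranges of 1779 to 3227 and 616 to 978 CPM, and *Inhba*, *Tgfbr3* and both sums were all highest in replicate 1. The macrophage sum was at 897 to 2281 against 381 to 610 CPM, and the spermatid sum at 614 to 813 against 4395 to 20980 CPM. The part of these cells in the result was not tested. Under the somatic scaling *Inhba* was at 0.10 and *Tgfbr3* at -0.01, 0 members were called higher, and 2 were called lower, *Bambi* (-1.40, adjusted p = 0.00199) and *Acvr2a* (-1.10, adjusted p = 0.0152). Of all 20952 genes, 53 were higher and 11106 lower on that scale.

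*Dmrt1* R111G/+ gonads stayed well below *Dmrt1* -/- gonads in the subunits. *Inha* was at 816, 414 and 567 CPM and *Inhbb* at 86.0, 112 and 126 CPM, and neither reached the lowest *Dmrt1* -/- library. Lower in *Dmrt1* R111G/+ were *Inhba* (log2 fold change -3.21, adjusted p = 7.73e-07), *Inha* (-2.50, adjusted p = 2.56e-05), *Inhbb* (-1.77, adjusted p = 6.05e-05) and *Fst* (-1.75, adjusted p = 0.00138). *Acvr1b* was higher (1.10, adjusted p = 9.30e-04), and 0.95 without *Dmrt1* R111G/+ replicate 3. These 5 calls stand beside 37.7% of all genes (27.6% higher and 10.1% lower). *Inha*, *Inhba* and *Fst* kept the call under the somatic scaling (-1.92, -2.66 and -1.19), while *Inhbb* was at -1.02 (adjusted p = 0.0584). *Tgfbr3* did not separate the genotypes, at 186 to 277 against 200 to 226 CPM (log2 fold change 0.07, SE 0.261).

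The P7 Sertoli cells addressed the state before puberty in cells enriched for the type that loses *Dmrt1*. *Bambi* was at 92.2, 100.8 and 85.2 CPM in controls and at 24.1, 21.2 and 21.04 CPM in *Dmrt1* f/f libraries. The controls were the highest of all 10 groups, well clear of the deleted cells. *Bambi* fell by 2.07 on the log2 scale (SE 0.152, adjusted p = 7.24e-04; 4.196-fold), the 1 member of 10 called, beside 4.56% of all genes (2.56% higher and 2.00% lower). Leaving out replicate 2 of both groups gave -1.98 (adjusted p = 0.00705). With the somatic scaling, whose marker lists were low in these cells, *Bambi* was at -3.24 with an adjusted p of 0.198, and 0 members were called.

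*Inhba* at P7 was at 13.02, 59.6 and 13.4 CPM in *Dmrt1* f/f and 0.699, 11.1 and 1.66 CPM in control libraries, the control values resting on 6, 64 and 12 counts. The groups did not overlap, yet the log2 fold change of 2.74 had an SE of 0.962 and an adjusted p of 0.143. Replicate 2 was the highest of its group in both, for *Inhba* and for the stromal markers, which summed to 99.5, 367 and 115 CPM in *Dmrt1* f/f and 29.8, 209 and 38.1 CPM in control libraries. The call depended on how the fit was made. Without control replicate 2 the log2 value of *Inhba* was 4.58 (adjusted p = 0.0212), *Fst* -1.83 (adjusted p = 0.0497) and *Tgfbr3* 2.19 (adjusted p = 0.0228). With every library kept, *Inhba* was also called with all 30 libraries in 1 fit (2.77, adjusted p = 0.00177), which takes the spread from the other ages too. It was called with a replicate block (3.01, adjusted p = 0.012), though the labels state no pairing, and with no low-count filter (2.71, adjusted p = 3.48e-14). The unfiltered fit gave far smaller p-values elsewhere as well, as for *Inhba* in P28 *Dmrt1* -/- against wild-type gonads (adjusted p = 7.58e-83 in place of 9.87e-09). With replicate 2 left out on both sides, a choice made after seeing the data, *Inhba* was at 3.48 (adjusted p = 0.0147), *Tgfbr3* at 1.88 (adjusted p = 0.0489) and *Fst* at -1.67 (adjusted p = 0.126). The part of stromal RNA in these values was not tested.

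*Fst* at P7 was at 1.86, 2.09 and 4.33 CPM in *Dmrt1* f/f and 7.34, 3.30 and 11.6 CPM in control libraries, which overlapped, with a log2 fold change of -1.46 (adjusted p = 0.165). *Tgfbr3* was at 6.67, 12.5 and 7.47 against 1.86, 11.1 and 1.93 CPM, where the P3 and P28 libraries were at 59.95 CPM or above. *Inha* at 1185, 1291 and 1689 against 1014, 1482 and 882 CPM overlapped between the groups (log2 fold change 0.30, adjusted p = 0.522), and so did *Inhbb* at 487 to 773 against 460 to 587 CPM (0.21, adjusted p = 0.628). The receptors *Acvr1b*, *Acvr2a* and *Acvr2b* had log2 fold changes from -0.21 to 0.39. The P7 Sertoli marker sum was 2727 to 3643 CPM in *Dmrt1* f/f and 4950 to 5544 CPM in control libraries, and the granulosa sum 1434 to 2278 against 553 to 1079 CPM.

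**Figure D4:**
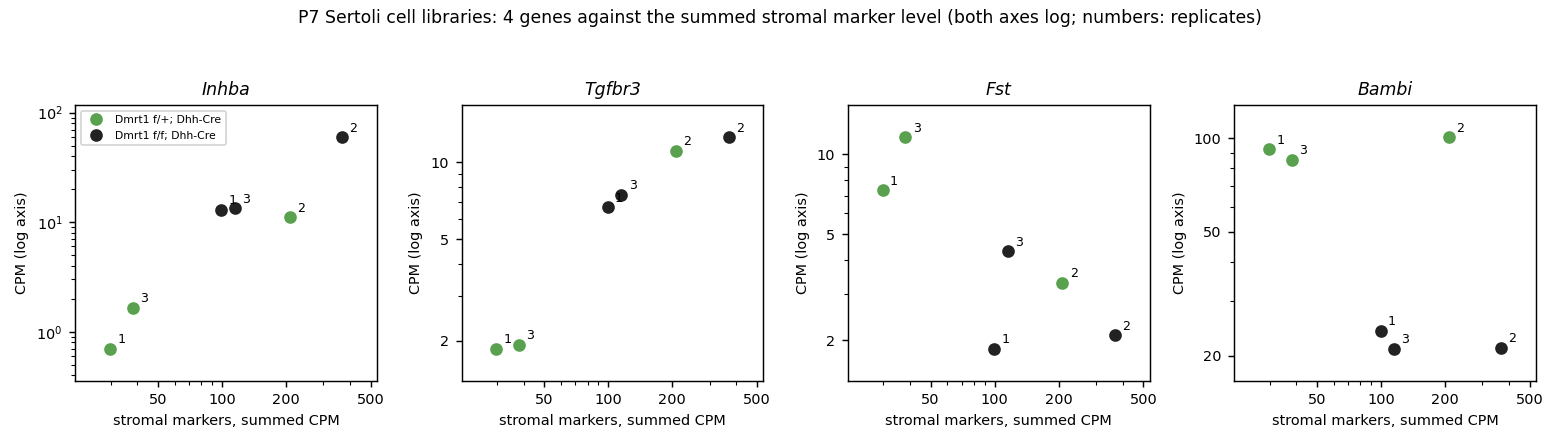
TMM-scaled CPM (y axis, log scale) of *Inhba*, *Tgfbr3*, *Fst* and *Bambi* against the summed CPM of 6 stromal markers (x axis, log scale) in the 6 P7 libraries, numbered by replicate. *Bambi* lies at 85.2 to 100.8 CPM in controls and 21.04 to 24.1 CPM in *Dmrt1* f/f libraries at any stromal level, whereas *Inhba* and *Tgfbr3* are highest in replicate 2, where the stromal sum is 209 and 367 CPM.

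At P3 the question was whether the members had already moved. In *Dmrt1* -/- against *Dmrt1* +/- gonads 0 of 10 were called (0.511% of all genes, 0.202% higher and 0.309% lower), with 0 at an unadjusted p below 0.05 and 0 by DESeq2. *Inha* was at 1139, 1195 and 949 CPM against 1205, 523 and 936 CPM, and *Inhba* at 595, 766 and 571 against 648, 626 and 560 CPM. The groups overlapped for both, with log2 fold changes of 0.30 (SE 0.236) and 0.08 (SE 0.162). *Bambi* stood at 25.7 to 31.2 against 27.7 to 41.0 CPM (-0.34, adjusted p = 0.700).

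For *Dmrt1* R111G/+ against *Dmrt1* +/- at P3, 0 members were called (0.133% of all genes, 0.0821% higher and 0.0505% lower), with 1 at an unadjusted p below 0.05 and 0 by DESeq2. That member was *Bambi*, at 42.6, 62.2 and 66.9 CPM against 41.0, 38.2 and 27.7 CPM, a log2 fold change of 0.67 (adjusted p = 0.306) without overlap. For *Dmrt1* R111G/- against *Dmrt1* +/-, 0 were called (0.196% of all genes, 0.0379% higher and 0.158% lower), with 2 at an unadjusted p below 0.05 and 0 by DESeq2. These were *Fst*, at 11.6, 21.6 and 22.5 against 10.1, 11.52 and 5.80 CPM (log2 fold change 1.03, adjusted p = 0.511), and *Fstl3* (-0.64, adjusted p = 0.575). With no low-count filter edgeR called *Fst* (1.03, adjusted p = 6.84e-04), beside 64 higher and 144 lower of 32868 genes.

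Between P3 and P28, *Inhba* had the steepest change in testes. It was at 648, 626 and 560 CPM in P3 and 9.08, 13.8 and 10.3 CPM in P28 *Dmrt1* +/- gonads, and fell by 5.79 on the log2 scale (adjusted p = 1.20e-09). *Inhbb* fell by 1.96, *Fst* by 1.55 and *Inha* by 1.31, so 4 of 10 members were lower at P28, beside 54.7% of all genes in either direction, 35.7% higher and 18.9% lower. Under the somatic scaling only *Inhba* was still lower (-3.66, adjusted p = 1.04e-09), and *Inha* (0.78), *Inhbb* (0.20) and *Fst* (0.62) changed sign. In *Dmrt1* -/- gonads the ages gave 2 members higher and 2 lower (23.0% of all genes, 10.9% higher and 12.1% lower). *Inha* rose by 1.64 (adjusted p = 5.36e-05) and *Fst* by 1.15 (adjusted p = 0.0296), while *Acvr1b* fell by 1.26 (adjusted p = 9.82e-06) and *Inhba* by 1.48 (adjusted p = 0.0136). Age, library set and cell makeup cannot be told apart here. Under the somatic scaling *Inha* alone of these 4 kept its call, with *Inhba* at -1.07 (adjusted p = 0.0740), *Fst* at 1.55 (adjusted p = 0.0581) and *Acvr1b* at -0.89 (adjusted p = 0.263), and *Tgfbr3* was called higher (1.23, adjusted p = 0.0306). The *Inhba* call was lost with DESeq2 (adjusted p = 0.0593) and without *Dmrt1* -/- replicate 3 of P28 or replicate 2 of P3, and that of *Fst* without any 1 of P28 replicates 2 and 3 and P3 replicate 3.

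The *Dmrt1* -/- effect itself, against *Dmrt1* +/-, was tested between ages in 1 fit of all 30 libraries. It was larger at P28 than at P3 for *Inhba* by 4.31 on the log2 scale (adjusted p = 9.60e-06), *Inha* by 2.96 (adjusted p = 1.23e-06), *Fst* by 2.703 (adjusted p = 5.19e-04) and *Inhbb* by 1.72 (adjusted p = 2.02e-05), 4 of 10 members beside 40.9% of all genes (17.8% higher and 23.1% lower). Under the somatic scaling *Inhba* was called, while *Inha* (1.26, adjusted p = 0.118), *Fst* (0.93) and *Inhbb* (-0.08) were not, and *Acvr1b* (-2.37, adjusted p = 0.00700), *Acvr2b* (-2.27, adjusted p = 0.0150) and *Acvr2a* (-1.75, adjusted p = 0.0262) were called lower. Of all 21696 genes, 208 were higher and 9420 lower on that scale. Against the P7 Sertoli effect, which differs also in tissue and in how *Dmrt1* was removed, *Fst* differed by 3.82, *Inha* by 2.96, *Bambi* by 2.24 and *Inhbb* by 1.64, 4 members beside 39.4% of all genes (15.4% higher and 23.9% lower). *Inhba* differed by 1.62 there (adjusted p = 0.0820). Under the somatic scaling *Inhbb* lost the call (1.10, adjusted p = 0.281) and the other 3 kept it. *Bambi* thus fell in P7 Sertoli cells but stood at 33.1 to 38.2 CPM in P28 *Dmrt1* -/- and 25.1 to 35.9 CPM in *Dmrt1* +/- gonads. The *Dmrt1* R111G/+ effect was 1.23 larger at P28 than at P3 for *Inha* (adjusted p = 0.0319) and 1.05 smaller for *Bambi* (-1.05, adjusted p = 0.00517), 2 members beside 13.4% of all genes (4.15% higher and 9.24% lower). Both calls were fragile: of 12 fits that each left out 1 library, *Inha* lost its call in 6 and *Bambi* in 7. Neither was called without *Dmrt1* +/- replicate 1 (1.11 and -0.92) or replicate 2 (1.17 and -0.85) of P28, or without *Dmrt1* R111G/+ replicate 3 of P3 (1.20 and -0.83).

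Ratios of 2 genes within a library do not depend on scaling. They can still differ with the mix of cells, and the part of cell makeup in them was not tested. The *Inhba* to *Inhbb* ratio of CPM per kb was 0.812 to 1.40 in all 12 P3 libraries, 0.0396 to 0.0885 in P28 wild-type, 0.0510 to 0.116 in *Dmrt1* +/- and 0.312 to 0.642 in *Dmrt1* -/- libraries. The beta A transcript was thus about level with the beta B transcript at P3 and below it in every P28 library, and P28 *Dmrt1* -/- and wild-type libraries did not overlap. In *Dmrt1* R111G/+ libraries it was 0.0840 to 0.264, between the 2 but overlapping wild-type, and in P7 Sertoli cells 9.12e-04 to 0.0126 in controls and 0.0115 to 0.0741 in *Dmrt1* f/f libraries.

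The *Inha* to *Inhbb* ratio was 6.47 to 9.53 in P28 wild-type and 21.1 to 38.1 in *Dmrt1* -/- libraries, and 4.13 to 8.28 over P3. The *Inha* to *Inhba* ratio was lower in P28 *Dmrt1* -/- (59.3 to 67.8) than in wild-type libraries (108 to 183). The beta A transcript was thus higher relative to both other subunit transcripts in whole *Dmrt1* -/- gonads, by 2.88 on the log2 scale over *Inhbb* and by 1.06 over *Inha*. The wild-type values of *Inhba* rest on 73, 37 and 39 counts, and cell makeup differed widely between these gonads. Against its antagonist, the *Inhba* to *Fst* ratio was 2.33 to 6.64 in wild-type and 8.71 to 12.8 in *Dmrt1* -/- libraries, and 19.0 to 85.2 over P3. *Acvr2a* was above *Acvr2b* in every library, by 1.81 to 11.2 times per kb.

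**Figure D5:**
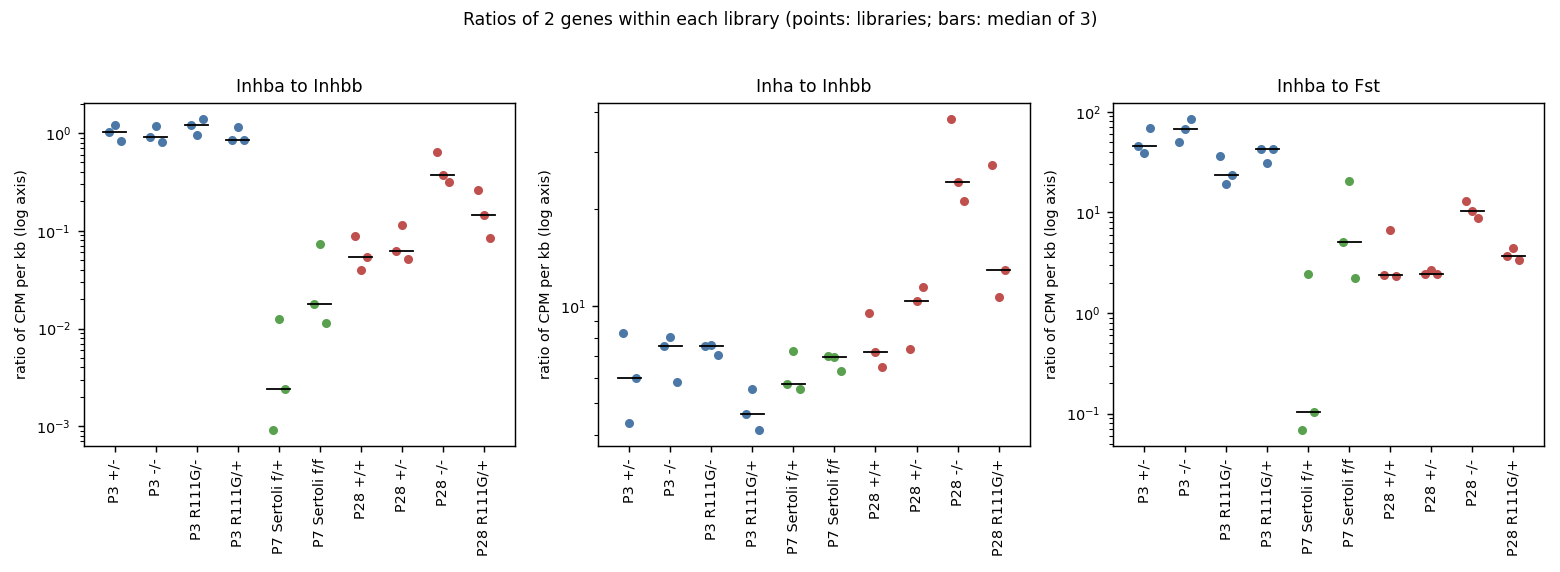
Ratios of CPM per kb (y axes, log scale) of *Inhba* to *Inhbb*, *Inha* to *Inhbb* and *Inhba* to *Fst* in the 30 libraries by group (x axis; points are libraries, bars the median of 3). *Inhba* to *Inhbb* lies at 0.812 to 1.40 in P3 gonads, at 9.12e-04 to 0.0741 in P7 Sertoli cells and at 0.312 to 0.642 in P28 *Dmrt1* -/- gonads. The P7 groups differ from the others in tissue as well as age, and their lowest value rests on 6 *Inhba* counts.

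A list of 67 other genes of the pathway was counted in the same fits. In P28 *Dmrt1* -/- against wild-type gonads, 36 of 54 tested were higher and 4 lower, beside 26.1% and 40.5% of all genes, and in the receptor list 10 of 11 were higher and 0 lower. These counts hold for TMM scaling. With the somatic scaling, 586 in place of 5472 of 20952 genes were higher, and this list was not tested on that scale. *Tgfb2*, a ligand that uses betaglycan (log2 fold change 3.82, adjusted p = 2.02e-08), *Bmp1*, a protease that activates such ligands (3.26), and *Smad3*, which carries activin signals (3.25), rose, and *Foxh1*, a partner of SMAD2, fell by 8.51. The same list gave 27 higher and 2 lower of 54 against *Dmrt1* +/- (all genes 19.8% and 38.7%), where *Pcsk6*, a proprotein convertase, rose by 3.74. In *Dmrt1* R111G/+ against *Dmrt1* +/- gonads it gave 11 higher and 2 lower (all genes 6.72% and 28.1%), with *Id2* (1.30), *Id3* (1.78) and the inhibitory *Smad7* (1.11) higher and the oocyte and germ cell ligand *Gdf9* lower (-1.47). Against *Dmrt1* -/-, 3 were higher and 19 lower (all genes 27.6% and 10.1%), among the latter *Pcsk6* (-4.44), *Bmp1* (-2.77), *Tgfb2* (-2.60) and *Gdf11* (-2.19).

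In P7 Sertoli cells 4 of 48 tested pathway genes were higher and 1 lower, beside 2.56% and 2.00% of all genes. *Tgfb2* (log2 fold change 2.36, adjusted p = 0.00646), *Pcsk6* (2.20, adjusted p = 0.0288) and *Acvr1c*, which encodes the type I receptor ALK7 (1.90, adjusted p = 0.0360), rose, and *Acvrl1*, a type I receptor best known from endothelium, fell by 1.73 (adjusted p = 0.00160). At P3, 0 of 55 were called in each of the 3 comparisons. From P3 to P28, 4 of 56 were higher and 32, *Bmp1* (-3.54) among them, lower in *Dmrt1* +/- gonads (all genes 35.7% and 18.9%). In *Dmrt1* -/- gonads 10 were higher and 12 lower (all genes 10.9% and 12.1%), where *Amh* fell by 5.28 and *Acvr1* rose by 2.27. Every fold and count of these pathway genes comes from TMM scaling, and the part of cell makeup in them was not tested.

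Over the 10 group means, the 3 genes most like *Inhba* of 13828 compared were *Emp2*, *Igsf10* and *Dpt*, with Pearson r of 0.9965, 0.9946 and 0.9931. For *Inha* they were *Ube2l3*, *Auh* and *Xbp1* (0.9928 to 0.9775), for *Inhbb* *Mmp23*, *Sox4* and *Eri1* (0.9931 to 0.9927), and for *Fst* *Chmp5*, *Tomm5* and *Sf3b6* (0.9607 to 0.9543). Among the members themselves the highest value was that of *Inhbb* and *Fstl3*, at 0.909, and the lowest that of *Acvr2b* and *Tgfbr3*, at -0.731. The 10 points share age, tissue and cell makeup.

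The Hi-C list of P7 *Dmrt1* -/- Sertoli cells gave 4291 interactions between 10 kb anchors, without a score, and was read with no control list. An anchor lay over the body of 6 of the 10 members, as it did for 19.1% of 21897 protein-coding genes: *Inhba* and *Fst* with 2 interactions each, *Inhbb*, *Bambi*, *Acvr2a* and *Tgfbr3* with 1 each. *Inha*, *Fstl3*, *Acvr1b* and *Acvr2b* had 0. Within 10 kb of the gene the count was also 6 of 10, beside 26.9% of protein-coding genes. Within 50 kb it was 8 of 10, beside 46.9%, with 3 interactions each for *Inha* and *Acvr2b* and 0 for *Fstl3* and *Acvr1b*. *Inhba* lies on chromosome 13 (chr13:16011851-16031621), and its anchor from 16010001 to 16020000, which holds the gene start, reached to 16760001 and to 17430001, 750 and 1420 kb away. *Fst* lies on the same chromosome (chr13:114452290-114458951), and both its interactions shared the anchor from 114450001 to 114460000, with partners 370 and 580 kb away. The *Inhbb* anchor from 119420001 to 119430000 on chromosome 1 also holds the gene start and paired with a bin 330 kb away. Members with and without an anchor over the gene body were both among those that changed at P28, and no expression value was tested against the list.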

How the data were processed

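Stranded RNA-seq of 30 libraries was used, and per the labels and the methods the authors trimmed reads (Trim Galore 0.6.0, cutadapt 1.18), aligned them with STAR 2.7.2a to GRCm38 and summed strand-specific reads over GENCODE M25 genes. The values deposited are unnormalized counts, and 0 columns were left unmapped to a sample. P7 control columns are titled +/+, while the genotype label reads f/+ with Dhh-Cre, which was followed. For Hi-C, the authors deposited anchor positions (another kind of value, with no count) for pooled replicates of 1 genotype. ChIP-seq was not analysed here.

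Libraries of 1 age were fitted together in edgeR 4.0.16 (R 4.3.3; filterByExpr, TMM scaling, quasi-likelihood F test, Benjamini-Hochberg adjustment over all genes), and contrasts across ages in 1 fit of all 30. SE is the log2 fold change divided by the square root of F. Levels are CPM scaled over all 30 libraries, so their ratios differ a little from fitted folds. Exon lengths and positions came from GENCODE M21 (99.5% of identifiers matched). The test was checked on simulated counts with the same spread for every gene and few genes shifted. That check covers neither the wide shifts at P28 nor the spread of *Inhba* at P7. DESeq2 1.42.0, other scalings (library size, DESeq2 size factors, summed macrophage, endothelial, peritubular myoid and stromal markers), no filter, other fits, a replicate block and leaving out each library were the alternatives. With 3 against 3 libraries, an exact test cannot go below 0.1, so single values were given no such p. Replicate numbers were not taken to pair the libraries, since in no comparison did every same-numbered set of residuals correlate above 0.1. That rule cannot exclude pairing. At P7 the correlation was 0.554 for replicate 1, 0.272 for replicate 2 and -0.0107 for replicate 3.

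Named are the 10 members, in each comparison up to 4 called pathway genes with the smallest adjusted p, the 3 genes most like each of *Inha*, *Inhba*, *Inhbb* and *Fst* (log2(CPM + 1) means, genes with at least 5 CPM in 1 group) and *Dmrt1*. The members and lists were chosen with earlier results of these data known.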

Additional observations from a re-analysis of the deposited data

Results flagged for a closer look

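The *Dmrt1* -/- effect differed between ages by the test of the difference itself, and no cause was tested. Between P28 and P3 gonads it differed by 2.96 on the log2 scale for *Inha*, 4.31 for *Inhba*, 1.72 for *Inhbb* and 2.70 for *Fst*. Between P28 gonads and P7 Sertoli cells it differed by 2.96 for *Inha*, 1.64 for *Inhbb*, 3.82 for *Fst* and 2.24 for *Bambi*. The *Dmrt1* R111G/+ effect differed between P28 and P3 by 1.23 for *Inha* and by -1.05 for *Bambi*. Tissue and cell makeup also differ between these ages and cannot be told apart from age.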

How the results depend on the processing

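With libraries scaled by 4 somatic marker lists, the members called were 8 for P28 *Dmrt1* -/- against wild-type, 7 against *Dmrt1* +/-, 0 at P7, 2 for P28 against P3 in *Dmrt1* -/- and 7 in *Dmrt1* +/- gonads, and 1 for the change of the *Dmrt1* R111G/+ effect with age. In that order, all genes gave 586 higher and 15691 lower of 20952, 603 and 14712 of 20952, and 2 and 63 of 14013 at P7. The 3 contrasts across ages gave 2353 and 1328, 17144 and 467, and 5 and 1989 of 21696 genes. Most genes tested were thus called wherever 7 or 8 members were. *Dmrt1* R111G/+ against *Dmrt1* +/- still gave 2, but both lower and neither of the original calls, beside 53 higher and 11106 lower of 20952 genes. Among values called on either scale, signs turned for *Fstl3* (-1.22) and *Tgfbr3* (-0.66) against wild-type, for *Fstl3* (-1.21), *Bambi* (-1.49) and *Acvr2a* (-1.69) in *Dmrt1* -/- against *Dmrt1* +/-, and for *Tgfbr3* (-0.01) in *Dmrt1* R111G/+ against *Dmrt1* +/-. They also turned for P28 against P3 in *Dmrt1* +/- gonads for *Inha* (0.78), *Inhbb* (0.20), *Fst* (0.62), *Fstl3* (1.24), *Bambi* (1.99), *Acvr1b* (1.48), *Acvr2b* (1.76) and *Tgfbr3* (1.94), and for the change of the *Dmrt1* -/- effect from P3 to P28 for *Inhbb* (-0.08) and *Acvr2a* (-1.75). Another 28 values called on neither scale changed sign. The cause was not tested.

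With no filter on low counts the members called were 1 for P28 *Dmrt1* +/- against wild-type, 3 at P7, 1 for P3 *Dmrt1* R111G/-, 3 and 6 for P28 *Dmrt1* R111G/+ against *Dmrt1* +/- and *Dmrt1* -/-, 5 for the difference between the P28 and P7 effects and 4 for the change of the *Dmrt1* R111G/+ effect with age. In that order, all genes gave 252 higher and 18 lower of 37880, 711 and 645 of 30703, and 64 and 144 of 32868. Then came 2438 and 6028 and 7694 and 1657 of 37880, and 3354 and 5469 and 996 and 2287 of 41204. P28 *Dmrt1* R111G/+ against *Dmrt1* +/- gave 1 with DESeq2 (all genes 1330 higher and 6517 lower of 26855) or its size factors (1306 and 6020 of 20952). P7 gave 3 with all 30 libraries in the fit (all genes 720 higher and 559 lower of 21696). It gave 3 without replicate 2 of both groups (723 of 14598 genes), an alternative chosen after seeing the data.

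With a replicate block, P28 *Dmrt1* R111G/+ against *Dmrt1* +/- gave 1 member (*Tgfbr3* at 0.98) and P7 gave 2 (*Inhba* at 3.01, adjusted p = 0.012), and no other call changed. All genes gave 1248 higher and 5689 lower of 20952, and 352 and 283 of 14013 at P7. Leaving out 1 library gave 1 to 4 members at P7 and 0 to 2 for the change of the *Dmrt1* R111G/+ effect with age. It turned the *Tgfbr3* difference between the P28 and P7 *Dmrt1* -/- effects to -1.26, within a range of -1.26 to 0.60. Of 270 called values under such leave-outs, 22 lost the call and 0 changed sign. Low counts limit *Fst* in P28 wild-type and *Inhba* and *Tgfbr3* in P7 control libraries.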
